A study of Rattus norvegicus with 17 samples.

Results

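Star, Cyp11a1, Scarb1, Mc2r and Nr0b1 are genes of steroid hormone synthesis in the adrenal cortex. They were chosen by name from the probe annotation, and 5 of 5 had a value among the 14506 genes measured. Each was measured by 1 probe set (10792251 for Star, 10910421 for Cyp11a1, 10758137 for Scarb1, 10802506 for Mc2r and 10933924 for Nr0b1), so no choice among probe sets was needed.

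The adrenal cortex makes steroid hormones from cholesterol. Adrenocorticotropic hormone (ACTH) from the pituitary binds its receptor on cortical cells, and cyclic AMP and protein kinase A then raise cholesterol delivery to the mitochondrion, where the first step of synthesis takes place. Scarb1 (the scavenger receptor SR-BI) takes up cholesteryl esters from high-density lipoprotein, Star carries cholesterol to the inner mitochondrial membrane, and Cyp11a1 cleaves the side chain to give pregnenolone. Mc2r is the ACTH receptor, and Nr0b1 (DAX1) is a nuclear receptor without a DNA-binding domain of the usual kind that represses the steroidogenic factor Nr5a1. The cortex surrounds the medulla, whose chromaffin cells make catecholamines.

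Expression was measured with Affymetrix arrays in 17 tumour samples of rats aged 8 months, on a mixed Sprague-Dawley white eye and Wistar-Kyoto background. Every sample, controls included, carried a mutation of p27Kip1, the cell cycle inhibitor gene that the labels write as Cdknb1. The sample labels call the mutation homozygous and the series design calls it heterozygous. The groups were 7 control samples given 20 mg/kg PEG (5 female, 2 male), 6 samples given 20 mg/kg NVP-BEZ235 (4 female, 2 male) and 4 samples given 30 mg/kg NVP-BEZ235 (3 female, 1 male). NVP-BEZ235 is an inhibitor of PI3K and mTOR. The length of treatment is not given. Nothing says that each sample is a separate animal, so the spread behind the p-values may be technical. Sample titles carry numbers, which are 1 to 4 at 30 mg/kg, 5 to 10 at 20 mg/kg and 1 to 7 in controls. Each dose was therefore also set against the controls of its own number range, because dose and number range go together.

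The tissue label and the series title name different tumours, a pituitary adenoma and a pheochromocytoma. Pituitary hormone genes and regulators were dim, with a mean over 8 markers between 3.98 and 4.82 log2 units across the 17 samples, although the highest single Prl value was 9.16. Chromaffin markers were bright, with a mean over 8 of 10 listed genes of 9.59 to 10.89 log2 units, as were adrenal cortex markers, with a mean over 8 of 9 listed genes of 9.54 to 10.8. Markers of gonad (4.18 to 4.65), the other steroid-making tissue, and of liver (4.06 to 4.67) were dim. The values of the 5 genes were thus measured in tissue with both cortical and chromaffin transcripts, and fewer cortical cells cannot be told apart from less RNA per cortical cell. Adipocyte markers stood apart in 1 library, replicate 2 at 30 mg/kg, whose mean over 6 markers was 8.43, against 5.62, 5.66 and 6.42 in the other 30 mg/kg samples. Fat cells also express Scarb1, so differences at 30 mg/kg against all controls were also computed without that library.

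The rank of a probe set among all 29214 probe sets of an array shows how brightly it was read. Star lay at the 99.2 to 99.9 percentile of every array, Cyp11a1 at 98.6 to 99.9 and Scarb1 at 97.3 to 99.4. Mc2r had the widest span, from the 78.0 to the 98.8 percentile. Nr0b1 lay at 33.9 to 63.4, near the middle of the array. Ranks of different probe sets depend on their probes as well as on transcript abundance and do not order the genes by expression.

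**Figure D1:**
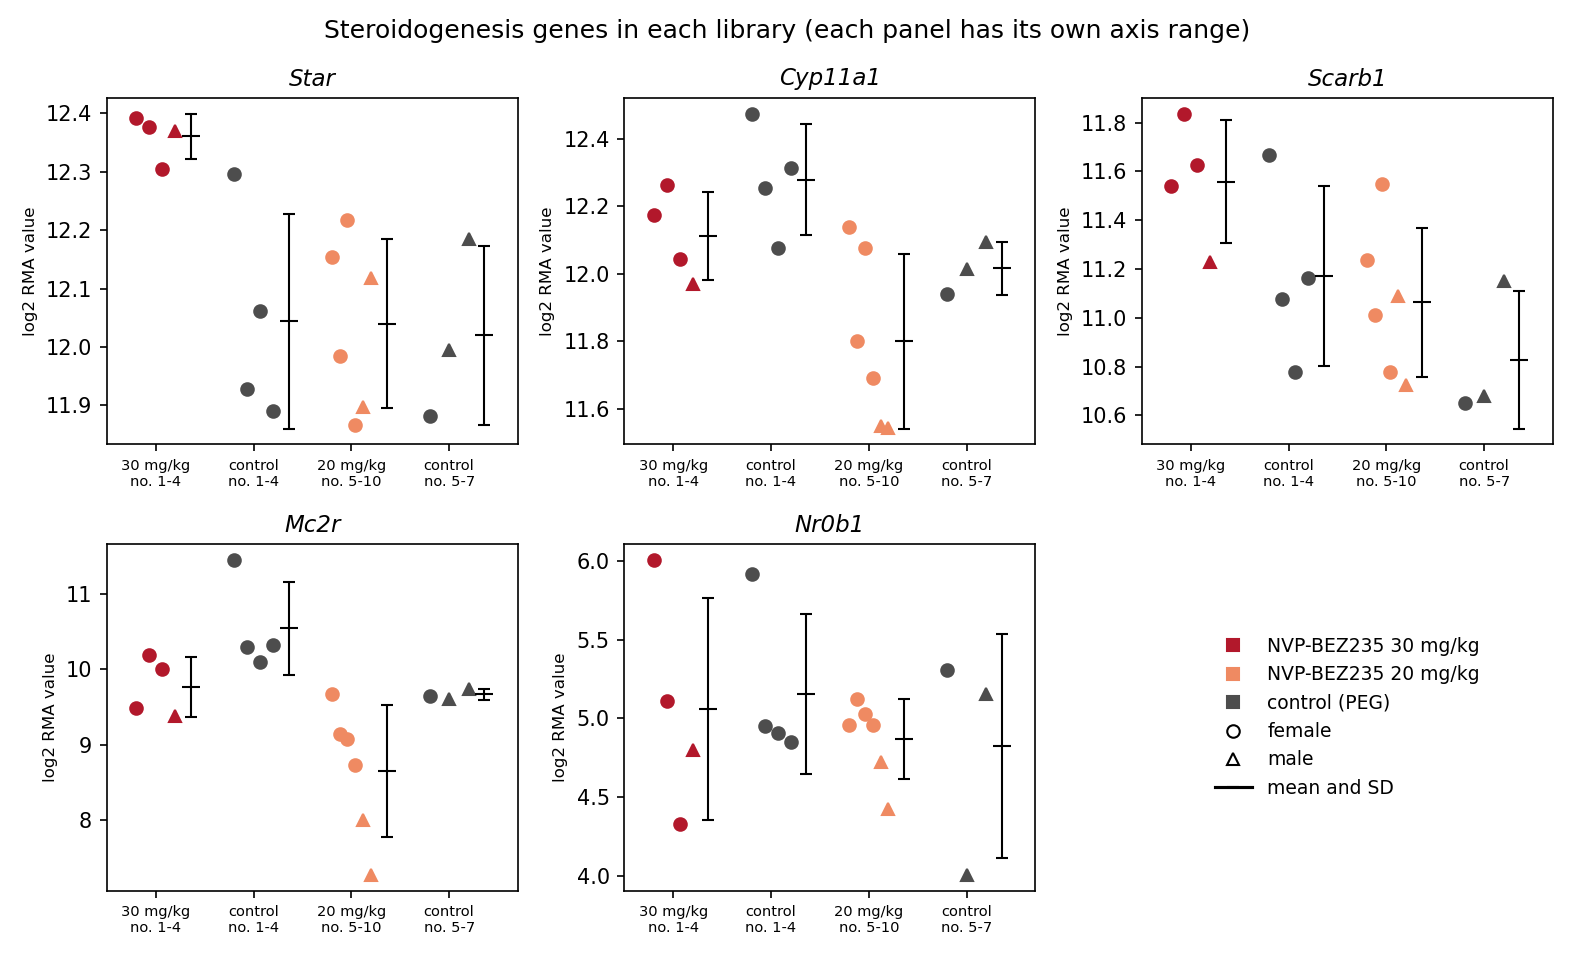
Log2 RMA value of each gene in each sample, with treated samples left of the controls of the same title numbers; symbols mark sex and the bars give the mean and SD. Mc2r is at 7.28 and 8.00 in the male samples at 20 mg/kg, while the 4 Star values at 30 mg/kg lie between 12.3 and 12.39.

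Mc2r, the ACTH receptor, passed the test in 2 comparisons over all samples, at 20 mg/kg against all controls and between the doses, and not within either number range. At 20 mg/kg (replicates 5 to 10) it measured 9.68, 9.14, 9.09, 8.73, 8.00 and 7.28 log2 units, against 9.65, 9.61 and 9.74 in controls 5 to 7. At 30 mg/kg (replicates 1 to 4) it measured 9.49, 10.19, 10.01 and 9.38, against 11.45, 10.30, 10.10 and 10.32 in controls 1 to 4. Of the 6 samples at 20 mg/kg, 5 lay below every control, and replicate 5 lay among controls 5 to 7. Of the 4 samples at 30 mg/kg, 3 lay below every control of the same numbers and 2 below all 7 controls.

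In the fit of 3 groups over all samples, Mc2r fell by 1.47 ± 0.26 (SE) log2 units at 20 mg/kg against control, 2.77-fold lower, with a 95% confidence interval of the log2 difference from -2.01 to -0.93 (limma adjusted p = 0.0167 over all genes). It was the only 1 of the 5 genes to pass in that comparison, in which 1.18% of all genes passed and 0.524% fell. The Mc2r difference at 30 mg/kg was -0.43 ± 0.29 (-1.05 to 0.18; limma adjusted p = 0.394). Mc2r was 1.03 ± 0.30 log2 units higher at 30 mg/kg than at 20 mg/kg (limma adjusted p = 0.0339), again alone among the 5, where 12.1% of all genes passed, 3.92% higher and 8.16% lower. Over both doses together Mc2r differed by -1.05 ± 0.29 (-1.67 to -0.44; limma adjusted p = 0.0830), and 9 of 10 treated samples lay below the control mean. None of the 5 genes passed in that comparison, where limma called 1.48% of all genes. At an unadjusted p under 0.05 there were 2 of the 5, against 14.4% of all genes.

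Control samples of Mc2r themselves differed by number range. Controls 1 to 4 averaged 10.54 ± 0.61 (SD, n = 4) and controls 5 to 7 averaged 9.67 ± 0.07 (SD, n = 3), and these ranges did not overlap. Control replicate 1, at 11.45, lay far above the rest. Against the controls of its own numbers, Mc2r differed by -1.35 ± 0.32 at 20 mg/kg (-2.05 to -0.65; limma adjusted p = 0.0714) and by -0.64 ± 0.33 at 30 mg/kg (-1.404 to 0.116; limma adjusted p = 0.604). Without control replicate 1 the value at 30 mg/kg was -0.34 against controls of its own numbers and -0.26 against all controls, and without 30 mg/kg replicate 1 it was -0.44 and -0.26. The difference passed at neither dose, and with the number range as a term the difference between the doses was 0.75 with a limma adjusted p of 0.812. The difference between 30 and 20 mg/kg therefore cannot be told apart from that between the number ranges. The call at 20 mg/kg was also lost with that term (-1.30, adjusted p = 0.146), without the sex term (-1.51, adjusted p = 0.0604), in female rats alone (-1.20, adjusted p = 0.117) and without 20 mg/kg replicate 8 (-1.42, adjusted p = 0.0529), all in limma. In each of these fits the difference was negative. With the title number as a block it was -0.26, and the call was lost there too (limma adjusted p = 0.973).

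Male samples held the lowest Mc2r values in each treated group. The males at 20 mg/kg had 8.00 and 7.28, against 9.16 ± 0.39 (SD, n = 4) in females. In controls the males had 9.61 and 9.74, against 10.36 ± 0.66 (SD, n = 5) in females, and control female 5, at 9.65, lay between the males. The male minus female difference with treatment as a term was -1.02 ± 0.32 log2 units (limma adjusted p = 0.1505), and the treatment by sex interaction was -0.57 ± 0.65 (limma adjusted p = 0.841). None of the 5 genes passed in either comparison, in which limma called 0.241% and 0.00689% of all genes. At an unadjusted p under 0.05 there were 3 of the 5 between the sexes, against 15.3% of all genes, and 0 of the 5 in the interaction, against 6.56% of all genes. The 2 male controls have title numbers 6 and 7, so sex and number range overlap in part.

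Star, the mitochondrial cholesterol carrier, was tightly grouped at 30 mg/kg. Its values there were 12.39, 12.38, 12.30 and 12.37, against 12.30, 11.93, 12.06 and 11.89 in controls 1 to 4. All 4 lay above the highest of the 7 controls, although the margin over control 1 was small. In the within-range comparison 3.46% of all genes had 4 treated values above 4 controls, and Star was the only 1 of the 5 among them. Star at 20 mg/kg measured 12.15, 11.98, 12.22, 11.87, 11.90 and 12.12, against 11.88, 11.99 and 12.18 in controls 5 to 7, and these ranges overlapped almost throughout.

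The Star difference at 30 mg/kg was 0.33 ± 0.10 log2 units (0.11 to 0.55; limma adjusted p = 0.0611) against all controls. None of the 5 genes passed at 30 mg/kg, where limma called 8.55% of all genes. At an unadjusted p under 0.05 there were 2 of the 5, Star and Scarb1, where 23.8% of all genes had such a p. Star did pass at 30 mg/kg without control replicate 1 (0.37, limma adjusted p = 0.0266), with median centring (0.39, adjusted p = 0.0414) and with trended, robust variances (adjusted p = 0.0415). Against controls 1 to 4 the difference was 0.31 ± 0.15 (limma adjusted p = 0.568), and none of the 5 passed there, with 0.11% of all genes called. At an unadjusted p under 0.05 there was 1 of the 5, against 9.49% of all genes. Star at 20 mg/kg differed from control by 0.01 ± 0.09 (-0.19 to 0.20; limma adjusted p = 0.984). Star averaged 12.03 ± 0.16 in controls (n = 7), 12.04 ± 0.14 at 20 mg/kg (n = 6) and 12.36 ± 0.04 at 30 mg/kg (n = 4; SD in each).

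Scarb1, the lipoprotein receptor that supplies cholesteryl esters, had its highest group mean at 30 mg/kg. It measured 11.54, 11.84, 11.63 and 11.23 there, against 11.67, 11.08, 10.78 and 11.16 in controls 1 to 4. All 4 lay above the mean of all controls, but only replicate 2, the sample with adipocyte transcripts, lay above control 1. The values at 20 mg/kg were 11.24, 11.01, 11.55, 10.78, 11.09 and 10.72, against 10.65, 10.68 and 11.15 in controls 5 to 7. Every sample at 20 mg/kg thus lay above the lowest pair of those controls, and 2 lay above the third.

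The Scarb1 difference against all controls was 0.52 ± 0.18 log2 units at 30 mg/kg (0.14 to 0.91; limma adjusted p = 0.0834) and 0.05 ± 0.16 at 20 mg/kg (-0.29 to 0.39; limma adjusted p = 0.896). Without 30 mg/kg replicate 2 the first was 0.45. The same omission left Star at 0.32, Mc2r at -0.50, Cyp11a1 at -0.092 and Nr0b1 at 0.056 at 30 mg/kg, and none of the 5 passed. Without control replicate 1 the Scarb1 difference at 30 mg/kg was 0.62 and passed (limma adjusted p = 0.0239). Scarb1 averaged 11.02 ± 0.36 in controls (n = 7), 11.06 ± 0.31 at 20 mg/kg (n = 6) and 11.56 ± 0.25 at 30 mg/kg (n = 4; SD in each).

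Cyp11a1, the side-chain cleavage enzyme, was lowest at 20 mg/kg. Its values there were 12.14, 11.80, 12.08, 11.69, 11.55 and 11.54, against 11.94, 12.02 and 12.10 in controls 5 to 7. Replicates 6, 8, 9 and 10 lay below all controls, the males lowest, and all 6 lay below the mean of the 7 controls. At 30 mg/kg Cyp11a1 measured 12.17, 12.26, 12.04 and 11.97, against 12.47, 12.25, 12.08 and 12.31 in controls 1 to 4, with overlapping ranges.

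The Cyp11a1 difference at 20 mg/kg was -0.36 ± 0.10 log2 units (-0.57 to -0.14; limma adjusted p = 0.0923) against all controls and -0.29 ± 0.14 (limma adjusted p = 0.355) against controls 5 to 7. None of the 5 genes passed against controls 5 to 7, where limma called 1.19% of all genes, 0.979% as lower. At an unadjusted p under 0.05 there was 1 of the 5, Mc2r, against 16.2% of all genes. Without control replicate 5 the difference against all controls was -0.40 and passed (limma adjusted p = 0.0385). At 30 mg/kg Cyp11a1 was at -0.06 ± 0.12 (-0.31 to 0.19; limma adjusted p = 0.813). Cyp11a1 averaged 12.17 ± 0.19 in controls (n = 7), 11.80 ± 0.26 at 20 mg/kg (n = 6) and 12.11 ± 0.13 at 30 mg/kg (n = 4; SD in each).

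Nr0b1, the repressor DAX1, was the dimmest of the 5 probe sets. It measured 4.96, 5.12, 5.03, 4.96, 4.72 and 4.43 at 20 mg/kg, against 5.31, 4.01 and 5.16 in controls 5 to 7. At 30 mg/kg it measured 6.0, 5.11, 4.33 and 4.80, against 5.92, 4.95, 4.91 and 4.85 in controls 1 to 4. Samples of every group covered much the same range, and the highest sample of each group numbered 1 to 4 was replicate 1. The fitted differences were -0.12 ± 0.24 at 20 mg/kg (-0.63 to 0.38; limma adjusted p = 0.830) and 0.03 ± 0.27 at 30 mg/kg (-0.54 to 0.60; limma adjusted p = 0.967).

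**Figure D2:**
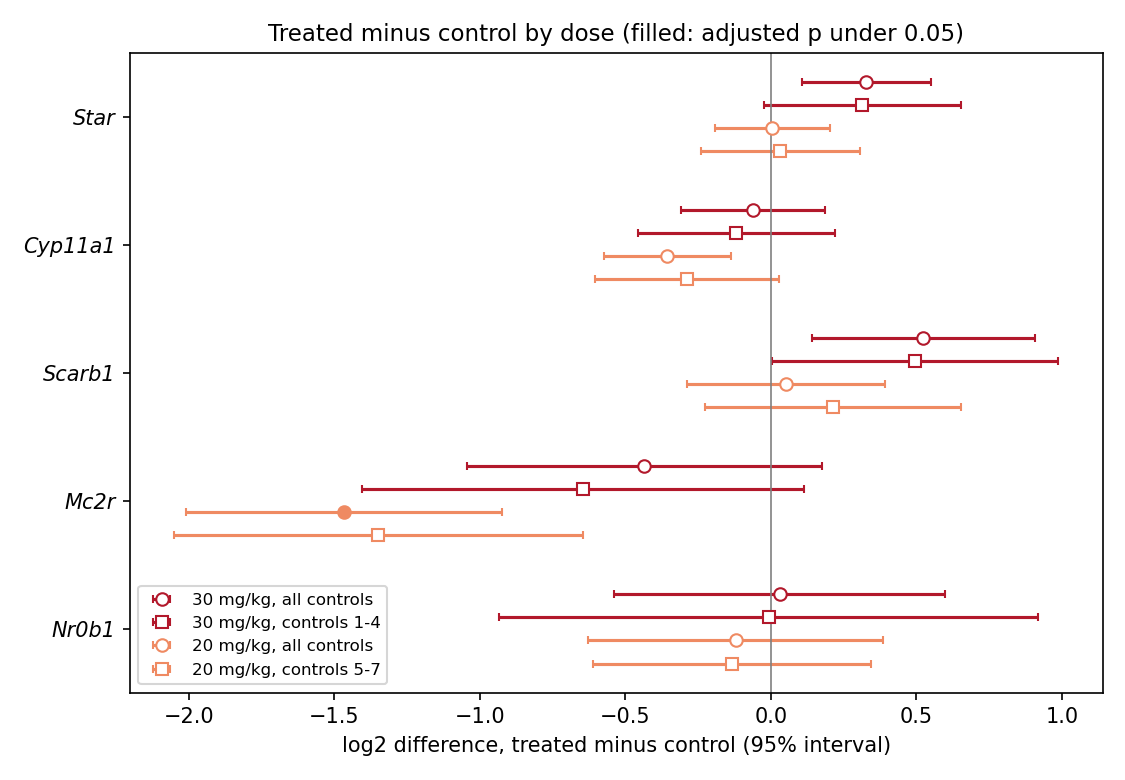
Log2 difference of each gene with its 95% confidence interval at each dose, against all controls and against controls of the same title numbers. Filled symbols passed a limma adjusted p of 0.05 over all genes. Mc2r at 20 mg/kg against all controls, at -1.47, is the only filled point.

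Across the 5 genes the median log2 difference was -0.12 at 20 mg/kg and 0.03 at 30 mg/kg against all controls, where the median of all genes was -0.01 and 0.01. Against control the 5 genes did not all differ in the same direction. At 20 mg/kg Mc2r and Cyp11a1 had the negative values of largest size while Star and Scarb1 were near 0, and at 30 mg/kg Star and Scarb1 had positive values while Mc2r was negative. The comparisons of the 2 doses share their control samples. Between the doses all 5 genes were higher at 30 than at 20 mg/kg, with a median of 0.32, against 0.03 over all genes. At an unadjusted p under 0.05 there were 4 of the 5 there, against 29.1% of all genes, and dose cannot be told apart from number range. At 20 mg/kg against all controls there were 2 of the 5, against 17.4%. All 5 were lower in males than in females (Star at -0.0023), with a median of -0.27, against -0.01 over all genes.

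Within groups, 3 of the genes varied together from sample to sample. After each value was centred on its group mean, Cyp11a1 and Mc2r correlated across the 17 samples with Pearson's r = 0.87 and Spearman's rho = 0.90 (permutation within groups, adjusted p = 0.000333 and 0.0003 over 20 relations). Their r was 0.78 without the 2 samples farthest from the median of the centred Cyp11a1 values. It was 0.77 in title numbers 1 to 4 and 0.86 in numbers 5 to 10. Cyp11a1 and Scarb1 correlated with r = 0.82 and rho = 0.86 (permutation, adjusted p = 0.00125 and 0.001), and Scarb1 and Mc2r with r = 0.73 and rho = 0.73 (permutation, adjusted p = 0.0072 and 0.008). Star correlated with Scarb1 at r = 0.58, with Cyp11a1 at 0.53 and with Mc2r at 0.35 (permutation, adjusted p = 0.0729, 0.1 and 0.283). Each point is 1 library, so the genes share its amplification and its mix of cells. Centring and permutation used the dose groups only. Differences between the sexes, and between number ranges among controls, therefore remain in these correlations, and the permutation p does not account for them. At 20 mg/kg the male samples were lowest for both Cyp11a1 and Mc2r. The r with the mean of the cortex markers was 0.87 for Cyp11a1, 0.88 for Scarb1, 0.75 for Mc2r and 0.64 for Star (permutation, adjusted p = 0.0002, 0.000333, 0.00168 and 0.0204). It was 0.43 for Nr0b1 (permutation, adjusted p = 0.209). Mc2r ran the other way to the chromaffin marker mean, with r = -0.52 (permutation, adjusted p = 0.0936).

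The marker lists bear on the levels by group. The cortex marker mean was 9.78 ± 0.24 at 20 mg/kg (n = 6), against 9.81 ± 0.19 in controls 5 to 7 (n = 3). Against all controls, 0 of the 8 cortex markers passed at 20 mg/kg in limma, where 1.18% of all genes passed. Of these markers 6 had a negative difference, and their median difference was -0.28. At 30 mg/kg the cortex marker mean was 10.31 ± 0.34 (n = 4), against 10.17 ± 0.37 in controls 1 to 4 (n = 4). Control replicate 1, the highest control for all 5 genes, also had the highest cortex marker mean of the controls, 10.69. The chromaffin marker mean was 9.99 ± 0.33 at 30 mg/kg, against 10.30 ± 0.19 in controls 1 to 4, and 10.37 ± 0.32 at 20 mg/kg, against 10.33 ± 0.32 in controls 5 to 7 (SD in each). Of the 8 chromaffin markers 4 had positive and 4 negative differences at 30 mg/kg against all controls. Only Ddc, which makes dopamine, passed, and it fell by 1.95 ± 0.31 log2 units (limma adjusted p = 0.00132), while Th, the first enzyme of the same path, was at 0.43 (limma adjusted p = 0.0748). Of the 6 adipocyte markers, all had positive differences and 1 passed, Cidec, a lipid droplet protein, which rose by 2.02 ± 0.56 (limma adjusted p = 0.0323; 1.48 and adjusted p = 0.109 without replicate 2). A single marker passed at 30 mg/kg in each of the lists of the cortex (Mrap), of the adrenal capsule (Dlk1, 0.66, limma adjusted p = 0.0323) and of the gonad (Amh, 0.43, limma adjusted p = 0.043; 0.37 and adjusted p = 0.115 without replicate 2). These lists held 8, 7 and 6 measured genes. None of the 8 pituitary or 4 liver markers passed there, and limma called 8.55% of all genes. The part of cortical, chromaffin or fat content in the differences of the 5 genes was not tested.

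**Figure D3:**
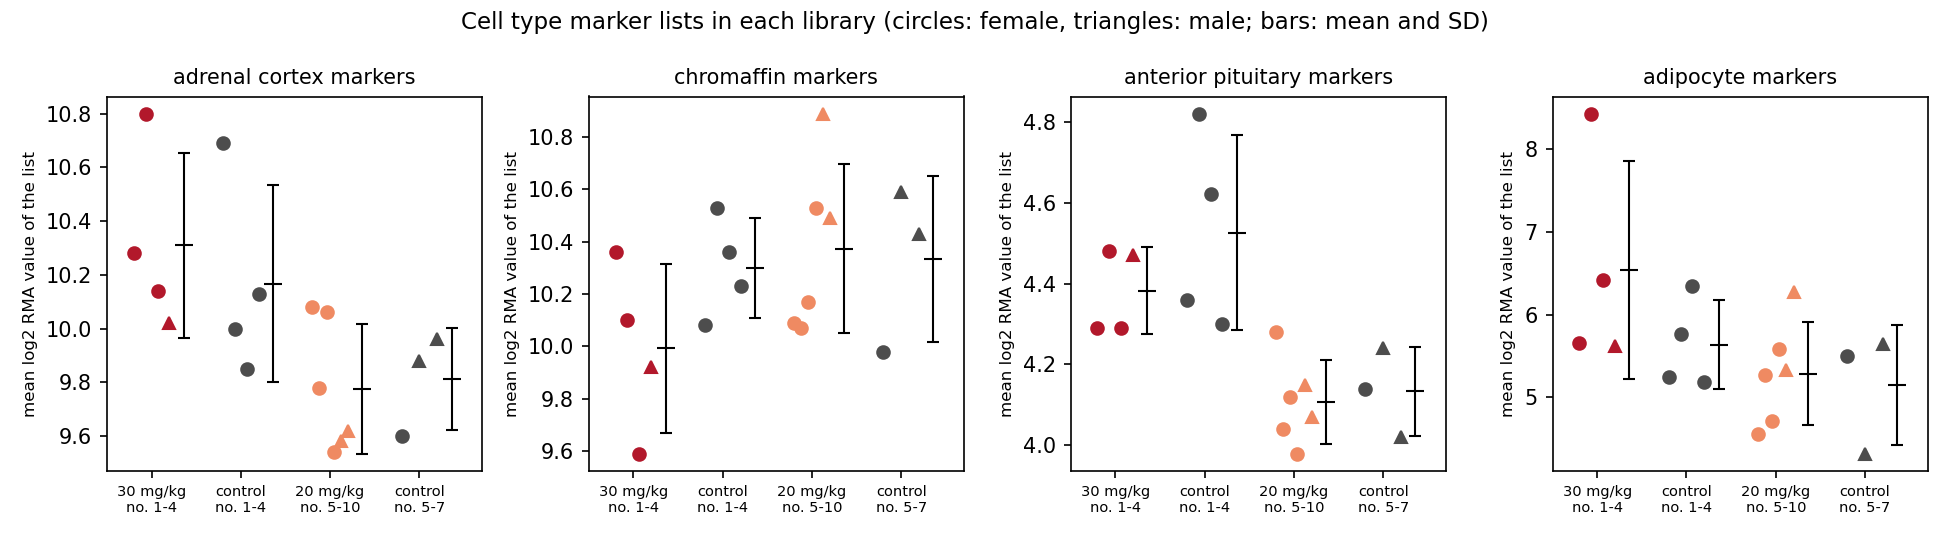
Mean log2 value of each cell type's markers in each sample, treated samples left of the controls of the same title numbers. Cortex and chromaffin means are at least 9.54 in every sample, pituitary means at most 4.82, and 1 sample at 30 mg/kg has an adipocyte mean of 8.43.

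The promoters of Cyp11a1 and Mc2r, the pair that varied together most closely, are shown for the 250 bases before the annotated start (RefSeq, GRCr8), 5′ to 3′ on the strand of the gene. The RefSeq table held 3 of the 5 genes, the third being Nr0b1. Capitals mark AGGTCA on either strand, a core to which Nr5a1 and other orphan nuclear receptors bind. Cyp11a1 lies at chr8:67318415-67318664 on the plus strand, and Mc2r at chr18:64290764-64291013 on the minus strand.
Cyp11a1: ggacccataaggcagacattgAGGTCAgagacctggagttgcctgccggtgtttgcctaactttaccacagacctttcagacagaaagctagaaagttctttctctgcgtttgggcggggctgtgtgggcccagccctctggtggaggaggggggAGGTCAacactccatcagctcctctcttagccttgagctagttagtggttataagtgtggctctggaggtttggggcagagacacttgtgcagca
Mc2r: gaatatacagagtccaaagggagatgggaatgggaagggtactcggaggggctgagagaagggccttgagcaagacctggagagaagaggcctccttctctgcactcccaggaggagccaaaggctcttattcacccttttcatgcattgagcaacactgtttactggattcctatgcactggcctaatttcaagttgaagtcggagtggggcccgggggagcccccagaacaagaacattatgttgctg

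The Cyp11a1 window holds AGGTCA at 229 and at 95 bases before the start, and the Nr0b1 window holds it at 145 bases before its start. The Mc2r window does not hold these letters, but variant spellings of such sites were not searched. Of 11968 promoters of measured genes, 11.8% hold AGGTCA in a window of the same length. The longer AAGGTCA, which contains it, was in 2.94% of promoters, and TGACG, the core of the cyclic AMP response element, in 23.3%; neither was in the 3 windows. TATAA was in 20.2% of promoters, and in the Cyp11a1 and Nr0b1 windows at 46 and 51 bases before the start.

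The other genes of the pathway were described in 4 lists. Among the steroid enzymes and their electron carriers, 11 of 17 listed genes were measured, and 1 rose and 0 fell at 30 mg/kg, where 3.66% of all genes rose and 4.89% fell. That gene was Por, the reductase that feeds electrons to the microsomal P450 enzymes, at 9.55 ± 0.13 (SD, n = 4) at 30 mg/kg against 9.07 ± 0.25 (n = 7) in controls (0.48 ± 0.13 SE, limma adjusted p = 0.027). None passed at 20 mg/kg in limma, where 1.18% of all genes passed. The list's median difference was -0.16 at 20 mg/kg, against 0.02 at 30 mg/kg. Cyp21a1, a hydroxylase of corticosterone synthesis, was higher at 30 than at 20 mg/kg by 0.97 log2 units (limma adjusted p = 0.0139), with 12.30 ± 0.18 at 30 mg/kg (n = 4) and 11.31 ± 0.33 at 20 mg/kg (n = 6). Dose cannot be told apart from number range there. Against all controls Cyp21a1 differed by 0.53 at 30 mg/kg and -0.44 at 20 mg/kg (limma adjusted p = 0.142 and 0.257). Against the controls of its own numbers the differences were 0.26 and -0.12 (limma adjusted p = 0.786 and 0.858). Cyp11b1, the last enzyme of corticosterone synthesis, averaged 10.12 ± 0.98 at 30 mg/kg and 10.31 ± 0.41 at 20 mg/kg, against 10.82 ± 0.32 in controls, and did not pass over both doses (-0.57, limma adjusted p = 0.217). Its copies Cyp11b2 and Cyp11b3 are close in sequence, so their probes may share signal. Cyp17a1, which rat adrenals hardly use, lay at 3.22 to 3.74 in all 17 samples, near the floor of the arrays.

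Of the genes of cholesterol supply and storage, 16 of 18 were measured, and 2 rose and 1 fell at 30 mg/kg. Over all genes 3.66% rose and 4.89% fell. Cd36, a relative of Scarb1 that takes up fatty acids, measured 8.87 ± 0.68 at 30 mg/kg (8.1 to 9.76) and 7.41 ± 0.29 in controls (6.99 to 7.73), with no overlap (1.46 ± 0.25 SE, limma adjusted p = 0.00219). Against controls 1 to 4 alone, 3.46% of all genes were higher at 30 mg/kg without overlap. The share against all controls was not counted. Npc1, which exports cholesterol from lysosomes, rose by 0.74 ± 0.17 (limma adjusted p = 0.0126). Apoe, a lipoprotein ligand that cortical cells also secrete, fell by 0.49 ± 0.13 (limma adjusted p = 0.026). Only 1 of the 16 fell at 20 mg/kg, where 0.524% of all genes fell. Soat1, which esterifies cholesterol for storage in lipid droplets, was that gene. It measured 9.77 ± 0.43 at 20 mg/kg and 10.65 ± 0.50 in controls (-0.86 ± 0.19 SE, limma adjusted p = 0.0421). Soat1 also had unequal controls, at 10.96 ± 0.44 in numbers 1 to 4 and 10.23 ± 0.12 in numbers 5 to 7, and against the controls of its own numbers its difference at 20 mg/kg was -0.56 (limma adjusted p = 0.236). Between the doses, 6 of the 16 were higher and 1 lower at 30 than at 20 mg/kg, where 3.92% of all genes were higher and 8.16% lower, and dose cannot be told apart from number range there.

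Among genes of ACTH and angiotensin signalling, 18 of 19 were measured, and 3 rose and 2 fell at 30 mg/kg. Over all genes 3.66% rose and 4.89% fell. Mrap, the accessory protein that Mc2r needs to reach the cell surface, measured 11.64 ± 0.12 (11.46 to 11.73) at 30 mg/kg and 10.33 ± 0.31 (10.09 to 10.75) in controls 1 to 4. All treated values thus lay above those 4 controls, as they did for 3.46% of all genes. Mrap rose by 1.38 ± 0.23 against all controls (limma adjusted p = 0.00194), while Mc2r did not. Against controls 1 to 4 the Mrap difference was 1.31 (limma adjusted p = 0.0644), and at 20 mg/kg it was 0.18 ± 0.20 (limma adjusted p = 0.682). Mrap2, a related accessory protein with a dim probe set (mean 4.97), fell by 0.87 ± 0.22 at 30 mg/kg (limma adjusted p = 0.0196). Crem, a cyclic AMP-responsive regulator, rose by 0.92 ± 0.28 (limma adjusted p = 0.0457), and Kcnk3, a background potassium channel of cortical cells, rose by 0.59 ± 0.16 (limma adjusted p = 0.0315).

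Prkar2b, a regulatory subunit of protein kinase A, fell over both doses, by 0.83 ± 0.20 log2 units (limma adjusted p = 0.0447). It was at 7.52 ± 0.59 at 30 mg/kg (n = 4) and 7.78 ± 0.40 at 20 mg/kg (n = 6), against 8.51 ± 0.40 in controls (n = 7). It also fell at 20 mg/kg against controls 5 to 7, by 1.16 ± 0.16 (limma adjusted p = 0.0118). Agtr1b, an angiotensin II receptor, fell in that comparison by 1.44 ± 0.23 (limma adjusted p = 0.0176), but not against all controls (-0.71 ± 0.44, limma adjusted p = 0.433), where its values spread from 4.32 to 7.52. None of the 18 genes passed at 20 mg/kg against all controls in limma, where 1.18% of all genes passed. The median difference of the 18 there was -0.18.

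Of the transcription factors of the cortex, 11 of 13 were measured, and 2 rose and 1 fell at 30 mg/kg. Over all genes 3.66% rose and 4.89% fell. Nr4a1 and Nr4a2, orphan receptors that ACTH and other stimuli induce within a short time, rose by 1.97 ± 0.45 (limma adjusted p = 0.0134) and 2.04 ± 0.39 (limma adjusted p = 0.00487). Nr4a1 measured 9.16 ± 0.30 at 30 mg/kg (8.88 to 9.5) and 7.19 ± 1.04 in controls (6.14 to 8.96), and the ranges overlapped at their ends. Nr4a2 measured 8.53 ± 0.76 at 30 mg/kg (7.79 to 9.3) and 6.50 ± 0.53 in controls (6.01 to 7.45), with no overlap. The share of all genes was counted only against controls 1 to 4, where 3.46% were higher without overlap. Nr0b2, the relative of Nr0b1 known as SHP, fell over both doses by 1.02 ± 0.23 log2 units (limma adjusted p = 0.0395) and against controls 5 to 7 by 1.17 ± 0.24 at 20 mg/kg (limma adjusted p = 0.0438), whereas Nr0b1 passed in no comparison. Nr0b2 averaged 4.80 ± 0.76 at 30 mg/kg and 4.89 ± 0.69 at 20 mg/kg, against 5.88 ± 0.57 in controls. Its probe set was dim, as that of Nr0b1 was, with a mean of 5.28 where the array medians were 4.95 to 5.11. No gene of the 4 lists passed at 30 mg/kg against controls 1 to 4 in limma, where only 0.11% of all genes passed. Of the 12 list genes that passed at 30 mg/kg against all controls, 11 also passed without replicate 2, with Cd36 at 1.17 (limma adjusted p = 0.00535). Apoe did not (-0.47, limma adjusted p = 0.0589), and Hsd11b2, Abca1, Plin2 and Tcf21 passed in that fit.

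**Figure D4:**
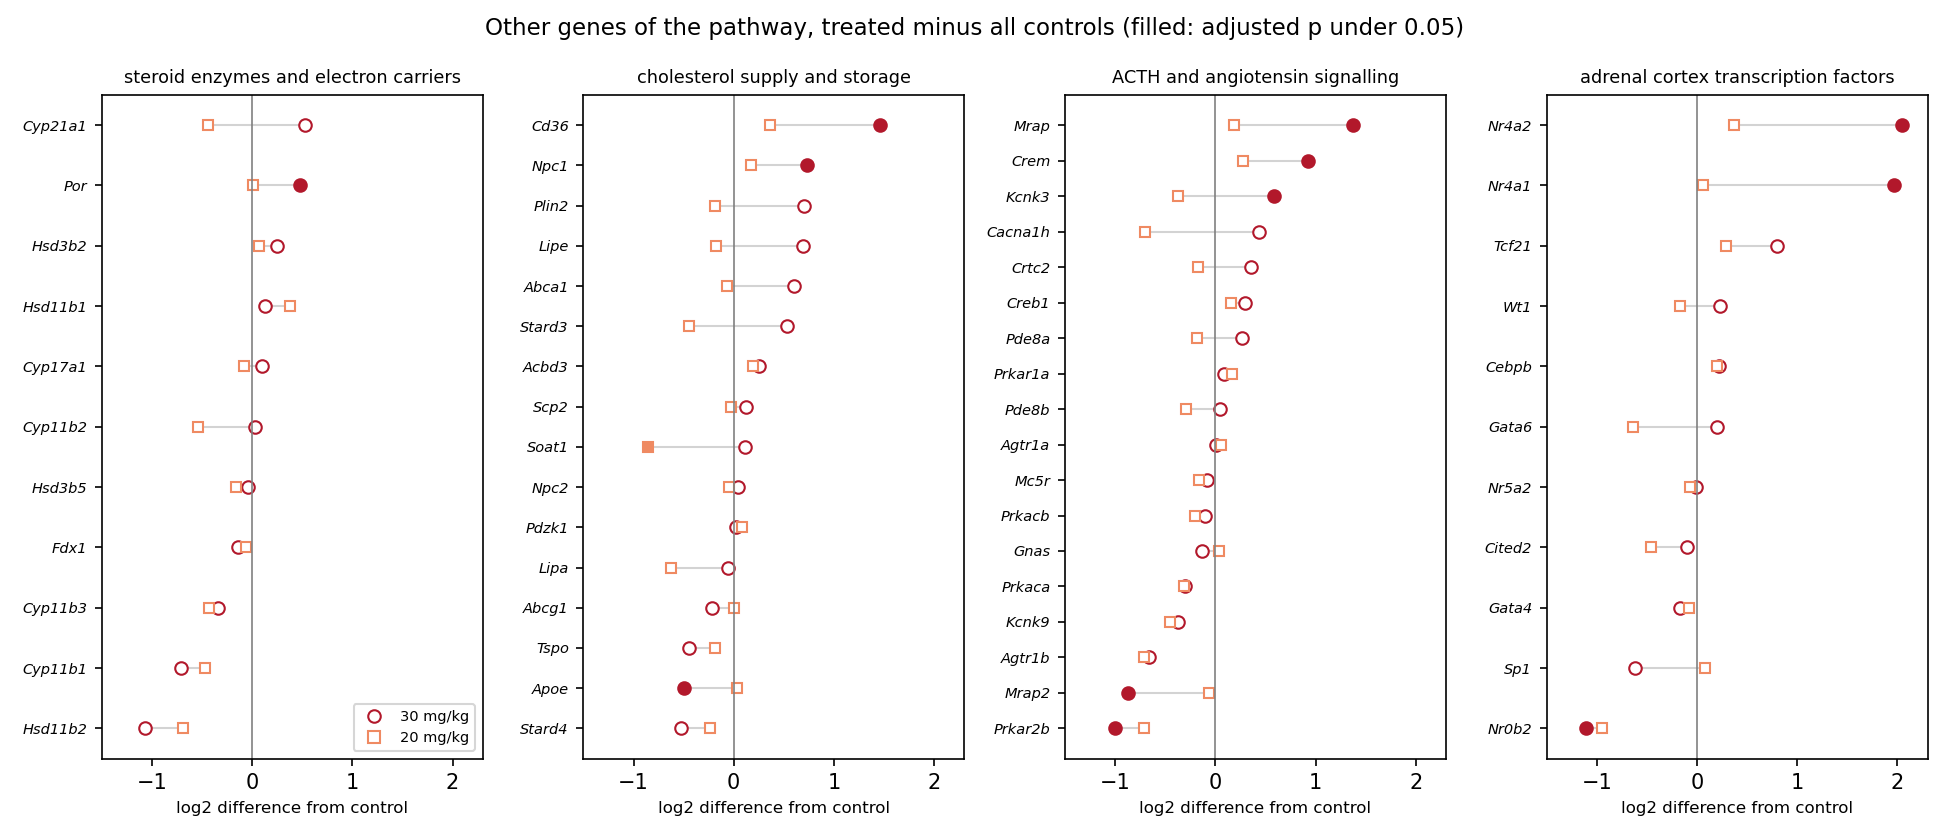
Log2 difference against all controls of each measured gene of the 4 pathway lists at 30 and at 20 mg/kg; filled symbols passed a limma adjusted p of 0.05 over all genes. Nr4a1, Nr4a2, Cd36 and Mrap reach 1.38 to 2.04 at 30 mg/kg, and Soat1 at -0.86 is the filled point at 20 mg/kg.

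The genes most like each of the 5 were found by the correlation of group-centred values over the 17 samples, given as a description. Nearest to Mc2r were Rhobtb1 (r = 0.94), Tgfbr3 (0.94) and C1r (0.93). Nearest to Cyp11a1 were Hyal1 (0.92), Lipa (0.92), a lysosomal lipase that frees cholesterol from its esters, and Rhobtb1 (0.90). Scarb1 was nearest to Cyp1b1 (0.94), Akr1b7 (0.93), an aldose reductase of the rodent adrenal cortex, and Etfdh (0.85). Star was nearest to Meis2 (0.87), Frzb (0.82) and Ide (0.81). The genes nearest to Nr0b1 were Lrrc36 (0.86), Hnf4a (0.85) and Or8k16b (0.84), which were dim, with means of 4.53, 4.40 and 3.10 log2 units.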

How the data were processed

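The submitters' processing notes name RMA and Affymetrix Expression Console 1.3.0.187. The authors deposited log2 values between 2.21 and 13.71, which were not transformed further. RMA gives every array the same distribution of probe intensities, so a shift common to most genes cannot be seen. Per the labels' protocols, RNA was amplified with a whole-transcriptome kit before labelling.

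Of 29214 probe sets, 15310 had 1 gene symbol, 323 had several and 13581 were not listed. Through RefSeq (GRCr8), 15279 were matched. The brightest probe set per symbol gave 14506 genes. No arrays were identical (correlations of 0.9413 to 0.9914). The number of arrays limits the precision.

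Each gene was fitted with limma 3.58.1 in R 4.3.3 (lmFit, eBayes, two-sided, sex as a term), with Benjamini-Hochberg adjustment over all genes and a threshold of 0.05. Comparisons within title numbers 1 to 4 rest on 3 treated females, because sex as a term absorbs the single male. The fits were tested on simulated data. Correlations used 100000 permutations within groups. The genes named were every gene of the 4 pathway lists that passed in the comparison of both doses or of a single dose with control; Cyp21a1, Cyp11b1, Cyp17a1, Th, Ddc, Cidec, Dlk1, Amh, Hsd11b2, Abca1, Plin2 and Tcf21 were chosen after their values were seen. The 5 genes and the lists were chosen with earlier results of these data known. Alternatives were the sex term, the title number as a block, the number range as a term, array weights, trended and robust variances, quantile normalization, median centring, the mean of probe sets, genes above the median, female rats and each sample left out. The fit of the list genes without 30 mg/kg replicate 2 was chosen after seeing the data.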

Additional observations from a re-analysis of the deposited data

Results flagged for a closer look

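Mc2r in control replicate 1, at 11.45 log2 units, stood apart from the other 6 controls: its gap to the next sample was 0.613 of the range of the group, above the limit of 0.568 for 7 samples. In all, 15 groups of values were checked, and chance picks out about 1 in 20. Without that sample the Mc2r difference at 20 mg/kg was -1.30, with a limma adjusted p of 0.0173.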

How the results depend on the processing

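The 5 genes gave 866 recomputed values with the same direction and call; 16 gained the call, 16 lost it and 59 turned sign. Over both doses the number of the 5 genes that passed was 1 with the number range as a term (Mc2r, -0.92) and 1 with array weights (Mc2r, -1.30), and 0 to 1 with a sample left out (without 30 mg/kg replicate 4, Mc2r at -1.18 with limma adjusted p = 0.0457). At 30 mg/kg it was 1 with trended variances and 1 with median centring (Star), and 0 to 2 with a sample left out. At 20 mg/kg it was 0 without the sex term, with the replicate block, with the number range and in females only, and 0 to 2 with a sample left out. Between the doses it was 0 in those same 4 fits, 2 with trended variances, 2 with quantile normalization and 2 with median centring (Star joining Mc2r), and 0 to 2 with a sample left out; the Mc2r call was lost without any of 8 of the 10 treated samples (30 mg/kg replicates 2 to 4, 20 mg/kg replicates 6 to 10). At 20 mg/kg against controls 5 to 7 it was 1 with array weights (Mc2r, -1.40), and 0 to 1 with a sample left out (Mc2r at -2.04 without control 5, at -1.45 without 20 mg/kg replicate 5). Between the sexes it was 1 with array weights (Mc2r, -1.08). Genes above the median only left out Nr0b1.

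With the title number as a replicate block, Mc2r at 20 mg/kg was at -0.26 (limma adjusted p = 0.973). The deviations of same-numbered samples from the means of their group within the number range correlated with r from -0.286 to 0.230 over 7 pairs. None correlated best with its own number. These values gave no sign that the numbers pair the samples, but so few pairs cannot exclude it. Signs turned with the block for Cyp11a1 at 20 mg/kg (0.0056, and 0.20 against controls 5 to 7), for Mc2r against controls 5 to 7 (0.031), for Cyp11a1 and Mc2r between the doses (-0.18 and -0.55), for Nr0b1 at 30 mg/kg (-0.0035) and for Star between the sexes (0.24; 0.083 with the number range). The other turned signs were of small values: Nr0b1 at 30 mg/kg with array weights (-0.092) and in females (-0.038), within numbers 1 to 4 with quantile normalization (0.035) and median centring (0.012), and within 5 to 10 without sex (0.046); Star at 20 mg/kg with weights (-0.0042), quantile normalization (-0.10) and centring (-0.0155), within 5 to 10 with weights (-0.044) and quantile normalization (-0.081), and in the interaction with centring (0.014); and Cyp11a1 at 30 mg/kg with centring (0.0031). The cause was not tested.

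With single samples left out, Nr0b1 ranged from -0.19 to 0.069 over both doses, -0.25 to 0.32 at 30 mg/kg, -0.26 to 0.006 at 20 mg/kg, -0.12 to 0.43 between doses, -0.44 to 0.40 within numbers 1 to 4, -0.42 to 0.099 within 5 to 10 and -0.39 to 0.75 in the interaction. Star ranged from -0.0335 to 0.0502 at 20 mg/kg, -0.081 to 0.11 within 5 to 10 and -0.055 to 0.068 between the sexes, and Scarb1 from -0.0345 to 0.15 at 20 mg/kg, -0.0105 to 0.37 within 5 to 10 and -0.44 to 0.032 in the interaction. Over all alternatives the genes that passed numbered 12 to 712 over both doses (215 as reported), 72 to 1563 at 30 mg/kg (1240), 0 to 577 at 20 mg/kg (171), 0 to 2366 between doses (1752), 0 to 62 within numbers 1 to 4 (16), 2 to 259 within 5 to 10 (173), 0 to 639 between the sexes (35) and 0 to 29 in the interaction (1).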
